A study of Mus musculus with 24 samples.

Results

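Livers of mice given in the labels as DNMT1 knockouts were compared at week 20 and week 8, to see across all probes what had come back toward adult control liver by week 20 and what had not. DNMT1 is the maintenance DNA methyltransferase, which copies methylation onto newly made DNA. The comparison uses 8 of the 24 arrays of the series: 4 of knockout liver at week 20 and 4 of knockout liver at week 8. Set against them were 4 arrays of control liver at week 20 and 4 at week 8, and 4 knockout and 4 control arrays of week 4 were used where arrays shared with no other comparison were needed. Total liver RNA was hybridised to an Illumina mouse expression array that reads 25697 probes. The labels give only genotype, week and tissue. They name no Cre driver, strain, sex, diet or time of day, do not say which liver cells lost the gene, and do not state whether each array stands for its own animal. The p-values therefore measure the spread between these arrays, which may be technical.

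Levels are given as log2(intensity + 16), so the lowest possible level is 4.00, and differences are given on the same scale with the standard error of the fit. On it, changes of dim genes come out smaller than they are. A probe was above background at an intensity over 16.3, and a fold written as "at least" sets the brighter group against that limit when the dimmer group had no array over it. A gene rose or fell where its adjusted p, over the 10733 genes tested, was below 0.05.

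In a liver without maintenance methylation, marks are diluted each time a cell divides and are kept in cells that do not divide. Promoters of germline genes, some retroviral elements and imprinted loci are the best known sequences held silent by methylation in body tissues. Adult liver is built mainly of hepatocytes, which secrete plasma proteins, clear drugs and hormones through cytochrome P450 enzymes and sulfotransferases, and store or release glucose and fat. In injured or regenerating liver, hepatocytes enter the cell cycle, fetal genes reappear, and macrophages and matrix-forming stellate cells are recruited or activated.

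Dnmt1 itself read 5.82, 5.75, 6.42 and 6.25 in the knockout livers of week 20, against 6.69, 6.43, 6.51 and 6.52 in those of week 8. All 4 arrays of week 20 lay below all 4 of week 8. The difference was -0.48 ± 0.19 (adjusted p = 0.0469), with an exact two-sided permutation p of 0.0286, and it missed the threshold under 11 of the 18 other settings tried. Control livers read 6.38 to 6.86 at week 20 and 6.71 to 6.91 at week 8. The difference between knockout and control liver did not pass the test at week 20 (-0.58 ± 0.19, adjusted p = 0.0737) or at week 8 (-0.30 ± 0.19, adjusted p = 0.2). Knockout liver of week 20 was below the mean of both adult control groups (-0.68 ± 0.17, adjusted p = 0.00992), a comparison chosen after seeing the data. Whether this probe reads inside or outside the deletion is unknown, so it does not check the labels.

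Some arrays stood apart from the rest of their groups. Array 4 of knockout liver at week 8 had less of the Y chromosome transcripts, with Eif2s3y at 4.00 and Ddx3y at 7.42, against 9.13 to 9.27 and 10.71 to 11.26 on the other 3 arrays of its group. Its Xist level was the highest of its group, at 7.20. Xist also fell from week 8 to 20 without that array (-1.17, adjusted p = 0.00201). In the control livers of week 20, arrays 3 and 4 had the acute phase gene Saa1 at 12.62 and 12.52 and the other 2 arrays had it at 5.86 and 5.92. Values without these arrays are given beside the main results that turn on them. Of the hepatocyte markers, Ttr was at 14.83 in knockout liver at week 20 and 14.81 at week 8, Apoa1 at 14.71 and 14.84, Cps1 at 13.95 and 13.97, Serpina1a at 13.58 and 12.86, and Alb at 8.14 and 6.99. Of 34 plasma protein genes 18 were lower and 1 higher in knockout than in control liver at week 8, against 24% and 24.9% of all genes.

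Knockout liver changed broadly between the weeks. At week 20 2230 genes were higher (20.8% of those tested) and 2386 lower (22.2%) than at week 8, together 43% of all genes. Of these, 638 rose and 1108 fell by at least 2-fold. Control liver over the same weeks had 2 genes higher (0.0186%) and 1 lower (0.00932%) by limma, 0.028% in all. Arrays 3 and 4 of control liver at week 20 stood apart, which widens the spread. Few calls therefore do not show that control liver was unchanged. By the test of the difference itself (31.1% called), the change from week 8 to 20 was more positive in knockout than in control liver for 1525 genes (14.2%). It was more negative for 1817 (16.9%). Without those 2 control arrays the counts were 1167 and 1486. In 3844 genes (35.8%) the 4 knockout arrays of week 20 did not overlap with the 4 of week 8. The median difference over all genes was 0.03. The shares of 20.8% and 22.2% are those against which the counts of list members below stand.

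The distance of each array from adult control liver, taken as the root mean square log2 difference over all genes from the mean of the 8 adult control arrays, was 0.53, 0.481, 0.526 and 0.488 in the knockout livers of week 20. It was 1.08, 0.949, 1.09 and 0.931 in those of week 8. The groups did not overlap, and the mean was 0.506 ± 0.0255 at week 20 against 1.01 ± 0.0848 at week 8 (SD, n = 4 each; difference -0.507, exact two-sided permutation p = 0.0286, the smallest that 70 arrangements allow). All 4 knockout arrays of week 20 still lay farther out than every control array of the same week, which ranged between 0.345 and 0.424, although those controls are part of the mean they were measured from. Between 424 and 648 genes per array were at least 2-fold from the adult control mean in knockout liver at week 20, against 1840 to 2529 at week 8.

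**Figure D1:**
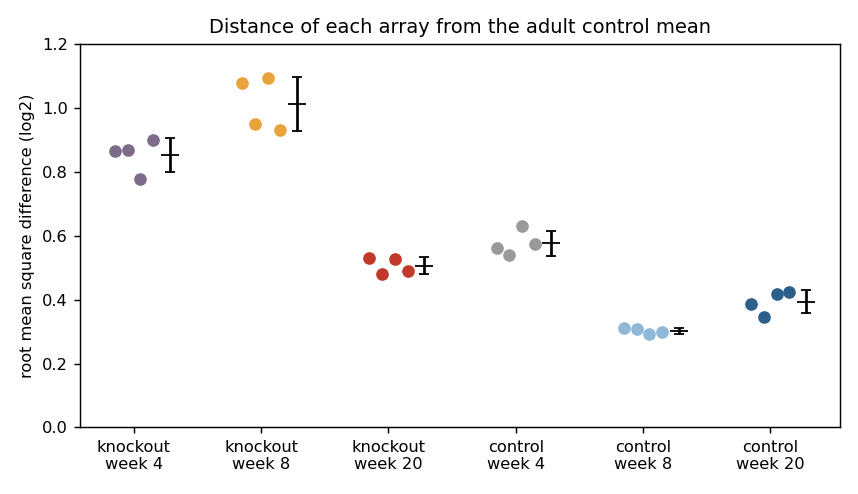
Root mean square log2 difference of each array from the mean of the 8 control arrays of weeks 8 and 20, over 10733 genes; knockout livers stand left of control livers, each from week 4 to week 20. Points are arrays and bars the mean ± SD (n = 4). The knockout arrays of week 20 lie between 0.481 and 0.53, below those of week 8 (0.931 to 1.09) and above the control arrays of week 20.

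At week 8, 2670 genes were higher (24.9%) and 2577 lower (24%) in knockout than in control liver, 48.9% in all. Of the genes that were higher, 1897 fell by week 20 and no longer passed the test against control liver of that week; of those that were lower, 1585 rose in the same way. These are called returned here, although missing the threshold does not show that levels became equal. The test at week 8 and the test between the weeks share the knockout arrays of week 8. Chance deviations of those arrays can therefore make genes picked at week 8 appear to move back. A further 107 higher and 30 lower genes moved back but still passed the test on the same side (part way), and 63 in all crossed to the other side, 20 of them higher and 43 lower at week 8. Another 86 higher and 82 lower genes passed the test on the same side at both weeks, with no change past the threshold between them (lasting). This does not show that their levels stayed the same. In 556 higher and 834 lower genes neither test passed at week 20.

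**Figure D2:**
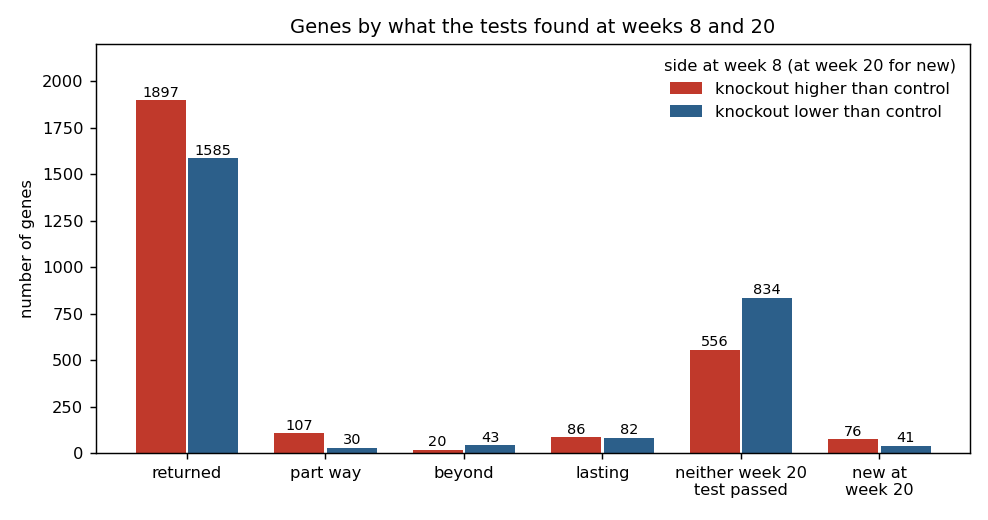
Number of genes in each class, by the side of control liver on which knockout liver stood at week 8 (at week 20 for genes new at that week). Returned genes number 1897 and 1585, against 107 and 30 part way and 86 and 82 lasting.

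At week 20, 369 genes were higher (3.44%) and 239 lower (2.23%) in knockout than in control liver, 5.66% in all. These numbers lean on the control group: without its arrays 3 and 4 194 were higher and 112 lower. Against the mean of the control groups of both weeks 697 were higher (6.49%) and 545 lower (5.08%), 11.6% in all. The comparisons with control liver at week 20 and with knockout liver at week 8 share the knockout arrays of week 20, so their values are given side by side.

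The week 4 arrays share nothing with the knockout arrays of weeks 8 and 20. At week 4 27.2% of genes passed the test between knockout and control liver. Of the 1587 that were higher (14.8%), 1160 (73.1%) were lower in knockout liver at week 20 than at week 8 and 43 (2.71%) higher. Of the 1331 that were lower (12.4%), 880 (66.1%) were higher at week 20 and 15 (1.13%) lower. The share over all genes was 22.2% lower and 20.8% higher. Across the 10733 genes, which are not independent replicates, the difference between week 20 and week 8 had a Pearson r of -0.653 with the week 4 difference. Control liver between weeks 4 and 8 shares no array with the knockout comparison either, and 7.98% of genes changed there. Of 342 that rose in control liver (3.19%), 163 (47.7%) rose in knockout liver from week 8 to 20 and 30 fell; of 514 that fell (4.79%), 343 (66.7%) fell and 30 rose (r across genes 0.406).

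Genes typical of male adult liver rose in most cases. Hsd3b5, a male-specific steroid-reducing enzyme of mouse liver, read 10.05, 11.73, 11.10 and 11.05 in knockout livers at week 20, against 4.89, 4.87, 5.59 and 4.00 at week 8. No arrays overlapped, and only 1 array of week 8 was above background. The difference was 6.14 ± 0.66 (adjusted p = 5.94e-08); Hsd3b5 remained 2.03 ± 0.66 below control liver of week 20, which missed the threshold (adjusted p = 0.0707), and it was below the mean of both adult control groups (-2.30 ± 0.57, adjusted p = 0.0113). Mup4, one of the major urinary proteins that carry pheromones, read 10.59, 11.94, 11.61 and 11.74 at week 20, against 5.14, 5.56, 5.45 and 5.33 at week 8 (difference 6.10 ± 0.42, adjusted p = 4.49e-11). All 6 major urinary protein genes tested rose, with a median difference of 4.41, and on the probes used none passed the test against control liver at week 20. A second probe of Mup5 was below control liver (-2.38, adjusted p = 9.49e-05). Their probes may share sequence between these near-identical genes, so the members cannot be told apart with certainty.

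Of 26 male-biased liver genes tested, 20 rose and 1 fell (median 2.15), and 18 rose without the array of low Y transcripts. Elovl3, a fatty acid elongase, was above background on no knockout array at week 8 and on all 4 at week 20, at least 29.8-fold higher (4.77 ± 0.41, adjusted p = 1.7e-09). Ugt2b1, which glucuronidates steroids, rose by 2.75 ± 0.21. Of 16 female-biased genes, 7 fell and 1 rose, against 22.2% and 20.8% of all genes. A1bg, a plasma protein more abundant in female mouse liver, read 4.19, 4.85, 4.00 and 4.52 at week 20, against 6.76, 7.42, 5.94 and 10.76 at week 8. The highest week 8 value belongs to the array of low Y transcripts, and A1bg fell without that array too (-2.32, adjusted p = 0.000307, against -3.33 ± 0.66 with it). Growth hormone drives this sex pattern in mouse liver; its receptor Ghr rose by 0.85 ± 0.15 and its target Igf1 by 0.45 ± 0.12, while 3 of 13 genes of that axis rose and 3 fell, near the 20.8% and 22.2% of all genes.

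Of 41 cytochrome P450 genes tested, 23 rose and 3 fell (median 0.74). Cyp2c29, an arachidonic acid and drug epoxygenase, rose by 3.77 ± 0.35 and Cyp2d13 by 3.40 ± 0.26. Sult2a8, a hepatic sulfotransferase, read 10.70, 11.56, 11.53 and 11.62 at week 20, against 4.00, 5.41, 5.43 and 6.32 at week 8 (6.06 ± 0.38, adjusted p = 1.03e-11). Every week 20 array was far above every week 8 array. In bile acid synthesis and transport 10 of 21 genes rose and 3 fell, against 20.8% and 22.2% of all genes. Cyp27a1, the side-chain hydroxylase, rose by 1.17 ± 0.10, and Slc27a5 and Baat, which activate and conjugate bile acids, rose by 1.87 ± 0.24 and 1.63 ± 0.16. Of 20 cholesterol synthesis genes 4 rose and 2 fell (6 and 0 without the array of low Y transcripts), and of 8 sulfotransferases 2 rose and none fell, shares near the 20.8% of all genes that rose.

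The regulators of hepatocyte identity also rose. Of 19 hepatocyte transcription factors tested 15 rose and none fell (median 0.69), with none past the test against control liver at week 20, or 1 higher and 1 lower without control arrays 3 and 4. Cebpa, a factor needed for hepatocyte metabolism, rose by 1.80 ± 0.15, the bile acid receptor Nr1h4 by 1.16 ± 0.14 and the xenobiotic receptor Nr1i3 by 1.99 ± 0.26. Urea cycle and amino acid enzymes rose in 15 of 27 cases and fell in 1. Prodh, which breaks down proline, rose by 1.80 ± 0.17 and Tdo2, which opens the ring of tryptophan, by 1.78 ± 0.27. Otc, an enzyme of the urea cycle, rose by 1.84 ± 0.22 on 1 probe, while another probe gave 0.52 ± 0.30 (adjusted p = 0.171) and was below control liver at week 20 (-1.03, adjusted p = 0.0398).

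Most genes of fat synthesis and of glucose handling rose. Of 19 fatty acid synthesis genes 14 rose and none fell (median 0.82). Thrsp, a lipogenic nuclear protein induced by thyroid hormone, read 11.36, 11.91, 12.90 and 11.09 at week 20, against 6.26, 6.21, 6.70 and 7.35 at week 8 (5.19 ± 0.53, adjusted p = 2.82e-08). Its values did not overlap between the weeks. Mlxipl, the carbohydrate-sensing factor that drives lipogenic genes, rose by 1.78 ± 0.20. In gluconeogenesis and glycogen 13 of 17 rose and 1 fell (median 1.39), among them Pcx, the pyruvate carboxylase (1.54 ± 0.18), Slc37a4, the glucose-6-phosphate transporter (2.21 ± 0.31), and Khk, the fructokinase (1.75 ± 0.22). In fatty acid oxidation 10 of 24 rose and 1 fell, against 20.8% and 22.2% of all genes. Ppara, the nuclear receptor that drives fatty acid oxidation, rose by 1.42 ± 0.24.

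Core clock genes and their outputs rose in 11 of 16 cases and fell in 1, or in 8 and 0 without array 4 of week 8. At week 8 only 5 of the 16 were below control liver, against 24% of all genes. In 4 the change was more positive than in control liver, against 14.2% of all genes. The mean level of the list was 8.505 to 8.81 on the knockout arrays of week 20. Control arrays gave 7.80 to 8.01 at week 8 and 7.25 to 8.78 at week 20. Per3, a clock repressor, was at background in the knockout livers of week 8 and rose at least 4.19-fold (1.94 ± 0.42); Tef, a clock output factor, rose by 2.32 ± 0.47. Per3 read 6.65 and 6.87 on the first 2 control arrays of week 20, and 4.78 and 4.60 on the other 2. Its change was not called different from that of control liver (0.59, adjusted p = 0.489). At week 20 Per3 stood above the mean of both adult control groups (1.37, adjusted p = 0.0169). Times of day are not given, and their part in these differences was not tested.

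**Figure D3:**
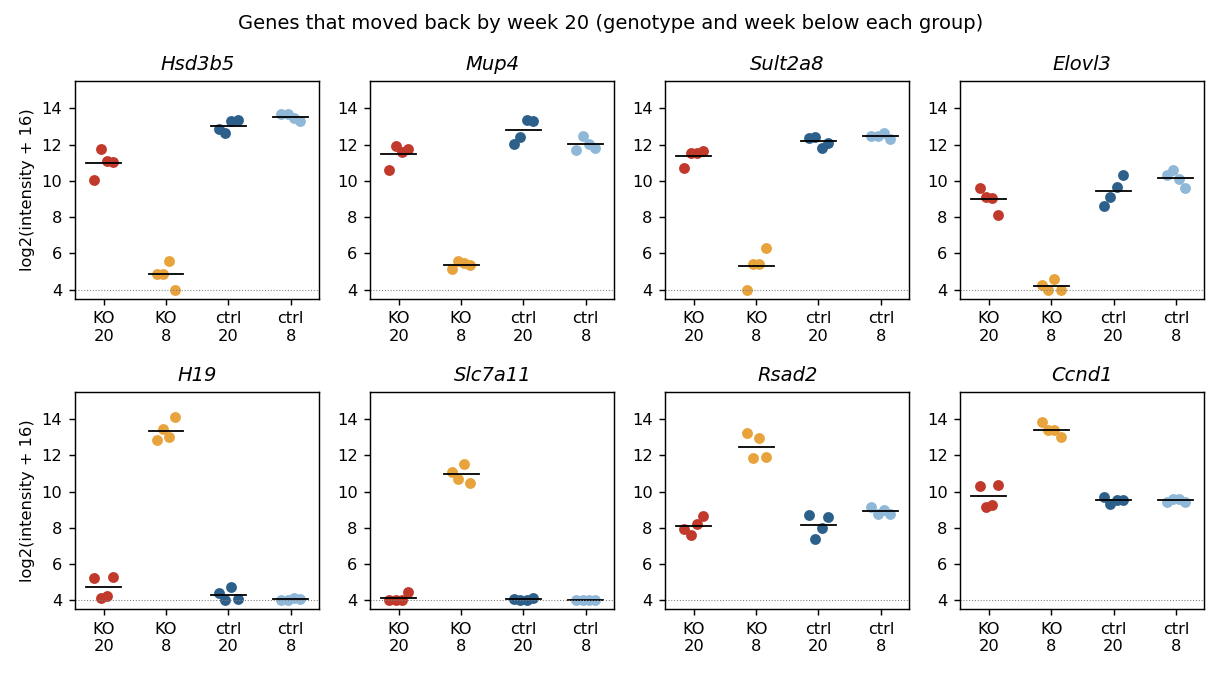
Levels on each array, as log2(intensity + 16), of 4 genes that rose and 4 that fell from week 8 to week 20 in knockout liver, with knockout (KO) left of control (ctrl) and the week below. Points are arrays, black lines group means and the dotted line the lowest possible level of 4.00. For H19 the knockout arrays of week 20 lie between 4.15 and 5.29 and those of week 8 between 12.83 and 14.11.

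Most fetal and imprinted genes fell. H19, an imprinted non-coding RNA that is abundant in fetal liver, read 5.22, 4.15, 4.25 and 5.29 in knockout livers at week 20, against 12.83, 13.42, 12.98 and 14.11 at week 8. This was the largest fall of any named gene (-8.61 ± 0.39, adjusted p = 2.75e-14), and control livers of week 20 read 4.00 to 4.75. Its imprinted neighbour Igf2, a fetal growth factor, read 5.99, 6.005, 6.77 and 5.78 at week 20, against 12.09, 12.48, 11.13 and 14.59 at week 8 (-6.44 ± 0.46, adjusted p = 8.64e-11). The array of low Y transcripts was the highest of week 8 for both genes, and both fell without it (H19 -8.35, Igf2 -5.76). Afp, the fetal counterpart of albumin, fell at least 9.95-fold (-3.44 ± 0.31), and Igf2bp3, a fetal RNA-binding protein, at least 23.4-fold (-4.34 ± 0.18). Of 10 fetal liver genes tested 8 fell and none rose (median -3.15), and of 12 imprinted genes 10 fell (median -1.28). No member of either list passed the test against control liver at week 20, which does not show equal levels. For Igf2 control livers of week 20 read 5.06 to 5.605, below every knockout array of that week.

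Most genes of oxidative stress defence fell. Slc7a11, the cystine importer that feeds glutathione synthesis, read 4.00, 4.00, 4.00 and 4.46 at week 20, against 11.08, 10.71, 11.52 and 10.46 at week 8. No knockout array of week 20 exceeded background, and the fall was at least 119.5-fold (-6.83 ± 0.29, adjusted p = 5.3e-15). Of 36 genes of the NRF2 and glutathione list 25 fell and 3 rose (median -1.04), and Cbr3, a carbonyl reductase, fell by 5.60 ± 0.31 on the log2 scale and Srxn1, which repairs oxidised peroxiredoxins, fell by 4.12 ± 0.24. In the ATF4 and serine list 10 of 19 fell and 2 rose; Asns, the asparagine synthetase, fell by 4.37 ± 0.61 and Psat1, of serine synthesis, fell by 3.32 ± 0.42. Pgd and G6pdx, both of the pentose phosphate pathway, fell by 2.41 ± 0.19 and by 2.32 ± 0.22, and Pkm, the pyruvate kinase of fetal and dividing cells, fell by 1.98 ± 0.19.

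All 17 mitosis genes tested were lower at week 20 than at week 8 (median -2.24, against 22.2% lower over all genes), and 1 of them was still higher than in control liver. Prc1, which bundles the midzone of the spindle, read 6.83, 6.49, 6.30 and 6.08 at week 20, against 9.64, 10.10, 9.87 and 10.65 at week 8 (-3.64 ± 0.30, adjusted p = 6.53e-10), with no overlap. Cdk1, the mitotic kinase, fell by 2.94 ± 0.32, Cdc20, which opens the way to anaphase, fell by 3.29 ± 0.38, and the G1 cyclin Ccnd1 fell by 3.62 ± 0.23. The mean level of the 17 genes was 5.48 to 5.63 on the knockout arrays of week 20 and 7.39 to 8.29 on those of week 8, and control arrays of week 20 gave 5.01 to 5.15. Of 25 DNA replication and G1/S genes 16 fell and 3 rose. Cdkn1a, the cell cycle inhibitor p21, fell by 3.86 ± 0.66, and of 22 p53 targets 13 fell and 2 rose.

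Promoters of mitotic genes often hold the cell cycle homology region, spelled TTTGAA. Searched on both strands in RefSeq promoters (build GRCm38.p6, the first listed start of each gene, 250 bases before it to 50 after it), these letters were found in 12 of the 15 mitosis genes with an entry (80%), against 12.6% of the 8204 tested genes and 18.1% of all 27025 promoters. A match is a description of the letters only. The stretches just before the starts of Cdk1 (chr10:69352913-69352952, minus strand) and Cdc20 (chr4:118437344-118437386, minus strand) are shown because these are members of the list with values above and matches before the start; capitals mark the match.
Cdk1: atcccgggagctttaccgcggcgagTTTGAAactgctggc
Cdc20: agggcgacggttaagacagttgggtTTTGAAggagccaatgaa

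Nearly all macrophage markers and interferon response genes fell. Of 27 macrophage markers 25 fell and none rose (median -2.03). Gpnmb, a glycoprotein of lipid-loaded macrophages, read 7.64, 7.11, 6.74 and 6.34 at week 20, against 11.04, 10.78, 10.67 and 10.83 at week 8 (-3.88 ± 0.30, adjusted p = 3.06e-10). It stayed above control liver, at 4.00 to 5.02 (2.48 ± 0.30, adjusted p = 1.13e-05; 2.45 without control arrays 3 and 4), but a second probe gave -0.11 (adjusted p = 0.838). Lgals3, a galectin of activated macrophages, fell by 3.11 ± 0.22 and Ms4a7 fell by 3.68 ± 0.28. In these bulk samples fewer cells of a type and less RNA per cell cannot be told apart. Neutrophil markers fell in 9 of 12 cases, and T and NK cell markers fell in 5 and rose in 1 of 15, against 22.2% and 20.8% of all genes. Of these 3 were higher and 1 lower than in control liver at week 20, against 3.44% and 2.23% of all genes. Without control arrays 3 and 4 the counts were 1 and 0.

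Of 36 interferon response genes 33 fell and none rose (median -1.53), with 1 higher and 1 lower than in control liver at week 20, or 2 and 0 without control arrays 3 and 4. Rsad2, the antiviral protein viperin, read 7.94, 7.61, 8.22 and 8.63 at week 20, against 13.23, 11.85, 12.95 and 11.88 at week 8 (-4.38 ± 0.29, adjusted p = 2.06e-11). Its week 20 values lay within the span of control liver (7.41 to 8.68). Ifit3, which binds viral RNA complexes, fell by 3.29 ± 0.24 and Oas1g, of the oligoadenylate synthetase family, fell by 3.75 ± 0.22. The letters of the interferon-stimulated response element, which are GAAA 2 times with any 2 bases between, on either strand, stood in 13 of 25 promoters of the list (52%), against 3.16% of the 8204 tested genes and 3.49% of all 27025. The other motifs searched stood near the share of tested genes. TGACNNNGC, with N any base, was found in 5 of 32 promoters of the NRF2 and glutathione list (15.6% against 14.5%). TTCNNNGAA was found in 1 of 18 promoters of male-biased liver genes (5.56% against 6.92%). Windows before the starts of Rsad2 (chr12:26456538-26456597, minus strand) and Ifit3 (chr19:34583382-34583441, plus strand) are shown with the match to the response element in capitals, read here on the opposite strand.
Rsad2: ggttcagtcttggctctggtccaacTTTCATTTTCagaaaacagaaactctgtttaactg
Ifit3: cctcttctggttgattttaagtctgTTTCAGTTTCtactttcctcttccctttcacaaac

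Most matrix genes fell too. Of 28 stellate cell and matrix genes 23 fell and none rose (median -1.28). At week 20, 1 was higher and 2 lower than control liver, against 3.44% and 2.23% of all genes. Without control arrays 3 and 4 the counts were 1 and 0. Lum, a collagen-binding proteoglycan, fell by 2.68 ± 0.22 and was still 0.97 ± 0.22 above control liver (adjusted p = 0.0109), while Sparc, a matrix glycoprotein, fell by 2.07 ± 0.17 and did not pass the test against control liver (adjusted p = 1). Of 11 matrix metalloproteinases and their inhibitors 6 fell. Among the 11, 3 were higher than control liver (2 without those arrays), against 3.44% of all genes. Mmp2, a gelatinase, fell by 2.39 ± 0.18 and stayed 1.27 ± 0.18 above control liver (adjusted p = 0.000113). In the biliary and progenitor list 7 of 13 fell. Krt8, a keratin, fell by 2.05 ± 0.13 and the tight junction protein Cldn4 fell by 4.63 ± 0.38. Of 24 endothelial markers 6 rose, near the 20.8% of all genes, and 1 fell (8 and 2 without the array of low Y transcripts).

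**Figure D4:**
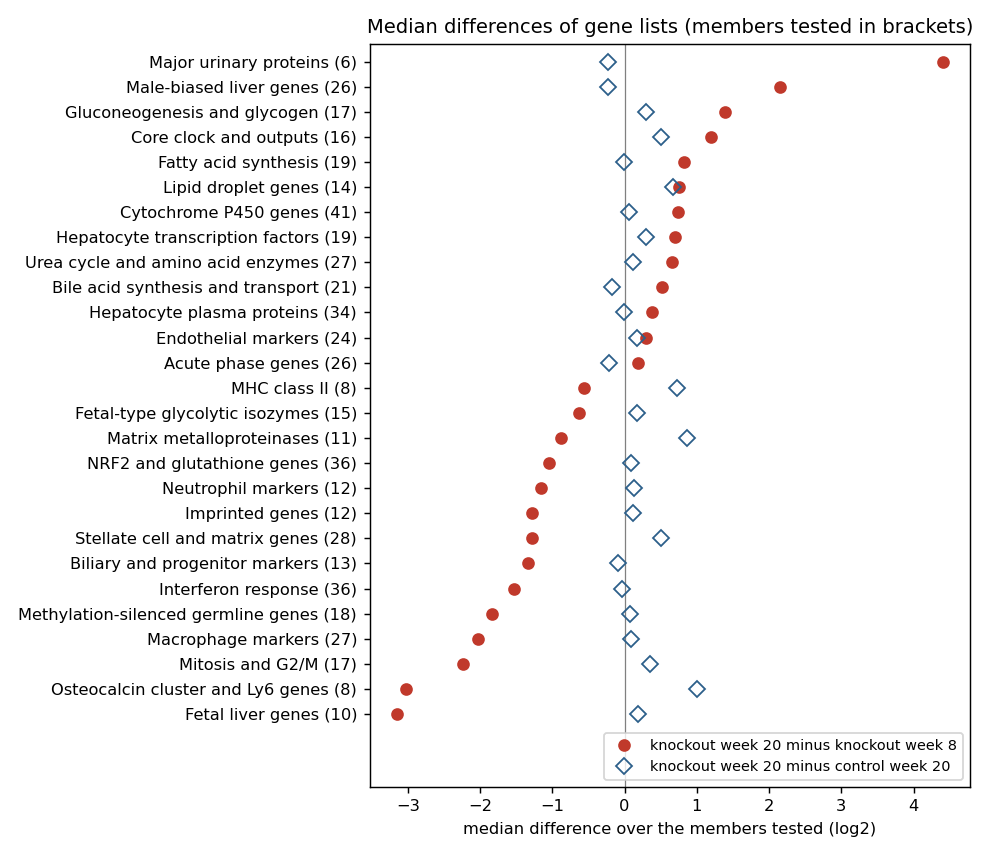
Median log2 difference over the tested members of 27 of the 46 gene lists, chosen with their values known, for knockout liver at week 20 minus week 8 (filled) and knockout minus control liver at week 20 (open). The filled points run from -3.15 for fetal liver genes to 4.41 for major urinary proteins; the open points lie between -0.226 and 0.999, and lists not drawn reach -0.459 (cholesterol synthesis).

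Several germline genes and genes not normally active in liver had not returned. Rhox5, a homeobox gene of the X chromosome expressed in testis and placenta, read 8.88, 8.79, 9.32 and 8.53 at week 20, against 11.15 to 12.48 in knockout livers of week 8 and 4.00 to 4.83 in control livers of week 20. It fell by 2.92 ± 0.28 between the weeks and was still at least 27.9-fold above control liver (4.44 ± 0.28, adjusted p = 1.32e-10). Bglap3, of the osteocalcin cluster, read 8.38, 8.96, 9.45 and 9.14 at week 20, against a mean of 11.74 in knockout livers of week 8 and 4.00 to 4.36 in control livers of week 20. It stayed at least 29.9-fold above control liver (4.89 ± 0.27, adjusted p = 6.85e-12). Both genes thus lay clearly between the other groups, with no overlap on either side.

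Of 18 germline genes tested 12 fell and none rose from week 8 to 20, 7 had returned, and 5 were still higher than control liver (3.44% of all genes were). Magea2, a cancer-testis antigen, stayed 2.85 ± 0.31 higher and Tex19.1, which guards the germline genome, 1.63 ± 0.31 higher (adjusted p = 0.0024; 1.58 and adjusted p = 0.0237 without control arrays 3 and 4), while Asz1, of the piRNA pathway, had returned (0.39 ± 0.37, adjusted p = 0.576). All 8 genes of the osteocalcin cluster and Ly6 list fell, and 4 were still higher, 6 without those control arrays. Ly6d, a surface protein of lymphoid and epithelial cells, stayed 2.05 ± 0.34 higher. Bglap1 stayed 2.71 ± 0.29 higher on the probe used, but neither of its other 2 probes passed the test against control liver (0.19, adjusted p = 0.744, and 1.004, adjusted p = 0.0557). Ntrk2, the neurotrophin receptor TrkB, stayed 3.34 ± 0.30 higher on the probe used, against 0.35 (adjusted p = 0.287) on a second probe. The symbol Iap, which the gene table used here does not annotate, stayed 2.62 ± 0.23 higher at 12.52 to 13.82, against 9.75 to 11.02 in control livers.

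The 250 bases before the first listed start are shown for Rhox5 (chrX:37754358-37754607, plus strand) and Tex19.1 (chr11:121145893-121146142, plus strand), which stayed above control liver, and for Slc7a11 (chr3:50443614-50443863, minus strand), which returned downward, and Hsd3b5 (chr3:98645535-98645784, minus strand), which rose. Hsd3b5 is classed as returned only because it missed the threshold against control liver of week 20. It stayed below the mean of both adult control groups (-2.30 ± 0.57, adjusted p = 0.0113). Capitals mark CG, the pair that DNMT1 methylates; the stretches hold 4, 15, 2 and 1 of them in that order.
Rhox5: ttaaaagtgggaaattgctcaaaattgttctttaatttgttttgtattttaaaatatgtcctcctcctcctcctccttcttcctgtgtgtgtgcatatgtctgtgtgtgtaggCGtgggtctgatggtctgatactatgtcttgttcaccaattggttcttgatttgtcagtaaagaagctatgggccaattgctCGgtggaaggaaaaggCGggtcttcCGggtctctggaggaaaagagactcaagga
Tex19.1: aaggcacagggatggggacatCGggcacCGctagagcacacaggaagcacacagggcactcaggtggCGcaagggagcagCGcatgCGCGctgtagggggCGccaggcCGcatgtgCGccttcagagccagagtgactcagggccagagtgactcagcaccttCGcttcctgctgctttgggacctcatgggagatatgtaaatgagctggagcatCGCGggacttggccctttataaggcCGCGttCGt
Slc7a11: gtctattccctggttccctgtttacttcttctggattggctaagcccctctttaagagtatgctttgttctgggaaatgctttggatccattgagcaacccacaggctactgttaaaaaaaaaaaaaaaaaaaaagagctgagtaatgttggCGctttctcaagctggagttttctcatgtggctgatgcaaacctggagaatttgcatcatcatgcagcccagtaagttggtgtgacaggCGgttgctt
Hsd3b5: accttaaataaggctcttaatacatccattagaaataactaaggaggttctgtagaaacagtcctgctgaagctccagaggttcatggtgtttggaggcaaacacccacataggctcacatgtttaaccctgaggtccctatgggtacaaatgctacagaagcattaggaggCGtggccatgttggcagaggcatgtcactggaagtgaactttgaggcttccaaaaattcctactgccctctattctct

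Over the whole promoter entries, genes that were higher at week 8 and came only part way back had a median of 9 CG pairs (77 of 107 with an entry), against 18 in those that returned (1400 of 1897) and 19 in all tested genes (8204 of 10733). At least 10 pairs were found in 48.1% of the first set, 70.4% of the second and 76.1% of all. Lasting genes had a median of 16 where knockout liver was higher and 19 where it was lower. These classes were formed from the measured values, so the medians describe them and were not tested.

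Lasting genes that were higher at both weeks included regulators and lipid enzymes. Noct, a circadian phosphatase of liver, read 12.52, 12.22, 12.24 and 12.47 in knockout livers at week 20 and 12.18, 12.17, 12.71 and 10.96 at week 8, against 9.73, 10.56, 8.11 and 9.43 in control livers of week 20. The knockout weeks overlapped, and both stood above every control array (2.90 ± 0.40, adjusted p = 8.69e-05; 2.22 and adjusted p = 0.00347 without control arrays 3 and 4). Wfdc15b, a gene of the WAP domain inhibitor family, read 8.79, 6.17, 7.05 and 7.76 at week 20, at least 9.41-fold above control liver (3.34 ± 0.37, adjusted p = 3.47e-06). A second probe of Wfdc15b showed a smaller difference from control liver (1.09, adjusted p = 0.048). Anxa13, a membrane-binding annexin (2.24 ± 0.29), Htra3, a secreted serine protease (1.81 ± 0.33), Map3k6, a stress kinase (1.71 ± 0.31), and Gpat3, of triglyceride synthesis (1.68 ± 0.33), stayed higher with and without those arrays.

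Other lasting calls were lost without the control arrays that stood apart. Cyp4a14, a fatty acid hydroxylase induced through PPAR alpha, read 12.07 to 13.05 in knockout livers at week 20, and 12.52, 11.57, 5.02 and 7.63 in control livers. Its difference of 3.33 ± 0.9989 became 0.47 (adjusted p = 0.771) without the last 2 of these. Cidec, which enlarges lipid droplets (3.27 ± 0.59), Osbpl3, an oxysterol-binding protein (1.86 ± 0.45), and Adamtsl2, a matrix protein (1.84 ± 0.34), lost their calls in the same way, at 2.15, 0.49 and 1.46. Against the mean of both adult control groups, which includes those arrays, each of these genes was higher. Cyp4a14 stood 3.49 above it (adjusted p = 0.0106) and Cidec 3.75 (adjusted p = 3.42e-05). Osbpl3 stood 2.68 above it (adjusted p = 7.94e-05) and Adamtsl2 1.61 (adjusted p = 0.00113). Osbpl3 read 7.465, 7.03, 4.43 and 4.615 in control livers of week 20, and 4.00 to 4.52 in those of week 8. Of 14 lipid droplet genes 7 rose and 2 fell from week 8 to 20, against 20.8% and 22.2% of all genes. Of the 14, 5 were higher than control liver at week 20 (3.44% of all genes were), and 1 without those arrays.

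Plasma protein genes returned unevenly. Of 34 tested 18 rose and 1 fell, with Fetub (1.14 ± 0.13) and the coagulation factor F9 (1.45 ± 0.21) among those that returned. Still below control liver were 4 of the 34, against 2.23% of all genes. Without control arrays 3 and 4 there were 2 below and 1 above. Fgb, the beta chain of fibrinogen, read 5.33, 4.57, 4.22 and 4.35 in knockout livers at week 20 and 4.78, 4.43, 4.51 and 4.03 at week 8, against 7.001, 6.34, 7.76 and 8.02 in control livers of week 20. The knockout weeks overlapped near background, and neither reached the control range (-2.66 ± 0.29, adjusted p = 2.91e-06; -2.05 without control arrays 3 and 4). Alb, the gene of albumin, read 8.10, 7.97, 8.16 and 8.33 at week 20, against 6.77 to 7.33 at week 8 and 9.13 to 9.98 in control livers. It rose by 1.15 ± 0.16 and was still 1.41 ± 0.16 below control liver (adjusted p = 5.62e-06). Each of these genes was read by a single kept probe. Those of Alb and Fgb read far below Ttr and Apoa1 in knockout liver. How much of each transcript they read is unknown, so the differences hold for these probes only.

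Other genes that stayed lower were Gna14, a G protein alpha subunit (-2.52 ± 0.23), Sult5a1, a sulfotransferase (-2.32 ± 0.33), Cela1, an elastase (-1.74 ± 0.24), Cyp2u1, a fatty acid hydroxylase (-1.71 ± 0.27), and Serpine2, a protease inhibitor, which no knockout array of week 20 showed above background and which was at least 3.1-fold lower. All 5 passed the test without the 2 control arrays too. Cd163, the haemoglobin scavenger receptor of Kupffer cells, read 6.02 to 6.17 at week 20, and 6.61, 7.05, 8.58 and 8.55 in control livers. Its difference of -1.62 ± 0.31 became -0.75 (adjusted p = 0.111) without the 2 control arrays. Against the mean of both adult control groups it was -1.475 (adjusted p = 0.00102). Susd4, a complement inhibitor, rose by 2.31 ± 0.31 and stayed 1.94 ± 0.31 below control liver.

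**Figure D5:**
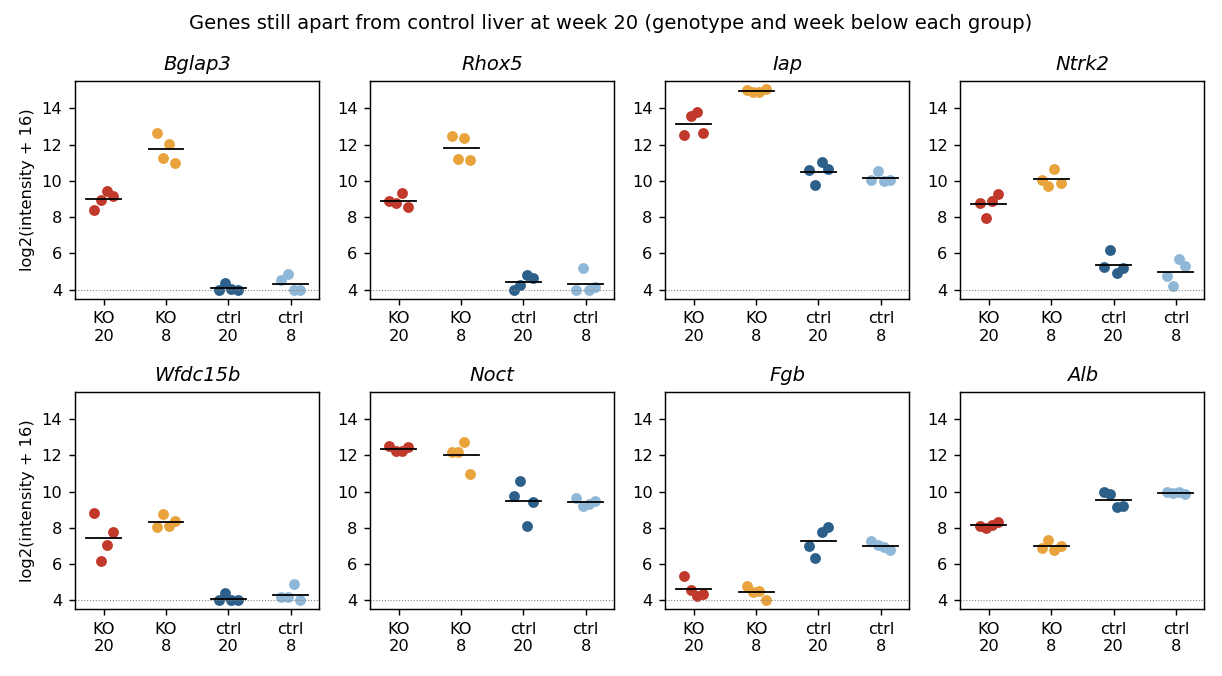
Levels on each array, as log2(intensity + 16), of 8 genes that still differed from control liver at week 20, with knockout (KO) left of control (ctrl) and the week below; points are arrays, black lines group means and the dotted line the lowest possible level. Rhox5 lies between 8.53 and 9.32 on the knockout arrays of week 20 and at 4.00 to 4.83 on the control arrays of that week.

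A few genes moved past control liver or first differed at week 20. Fbxo31, a subunit of a ubiquitin ligase, read 9.99, 9.84, 9.96 and 9.57 in knockout livers at week 20, against 6.90 to 8.14 at week 8 and 8.61 to 8.82 in control livers (2.26 ± 0.24 over week 8, 1.13 ± 0.24 over control, adjusted p = 0.00732). Without control arrays 3 and 4 the difference from control was 1.09 (adjusted p = 0.0538). Of the genes named as having passed beyond control liver, which were Lpin1, Lor, Fbxo31, Asic5, Srrd, Igf2bp2, Tubb2b, H1f2, Clic1 and Ercc4, none passed the test without those arrays. The size of some differences held, such as Asic5 at 1.11 with them and 1.12 without, and Ercc4 at -0.85 and -0.91. Against the mean of both adult control groups, Lpin1, Asic5 and H1f2 missed the threshold and the others named passed it. Of the 4 other probes of Tubb2b, 1 fell from week 8 to 20 and 3 did not pass the test, and none of the 4 passed it against control liver.

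New at week 20 were 76 higher and 41 lower genes. Fkbp5, a glucocorticoid-induced chaperone partner, read 9.59, 9.02, 9.89 and 9.87 at week 20, against 9.12, 8.91, 8.97 and 7.73 at week 8 and 6.43 to 8.33 in control livers of week 20. It stood 2.19 ± 0.32 above control liver (adjusted p = 0.000169; 2.21 without the 2 control arrays), but its rise from week 8 (0.91 ± 0.32, adjusted p = 0.0239) was lost without array 4 of week 8 (0.59, adjusted p = 0.128). Ppp1r3c, which targets a phosphatase to glycogen, fell by 1.42 ± 0.25 and stood 1.54 ± 0.25 below control liver (adjusted p = 0.00053). Cldn2, a channel-forming claudin, fell by 0.92 ± 0.21 and Cdk5rap1, a tRNA-modifying enzyme, fell by 1.16 ± 0.21, and both stood below control liver with and without the 2 control arrays. Plin4, a lipid droplet coat protein (2.34 ± 0.55 above control), and Nrg4, a secreted growth factor (2.0 ± 0.42), lost that call without them. Against the mean of both adult control groups, Plin4 was 2.24 higher (adjusted p = 0.00391) and Nrg4 2.125 higher (adjusted p = 0.000518).

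Of 26 acute phase genes 8 were higher and 1 lower at week 20 than at week 8 (median 0.19), against 20.8% and 22.2% of all genes. Against control liver at week 20 none was higher and 1 lower, but without control arrays 3 and 4 10 were higher and 2 lower. The mean level of the list was 11.13 to 11.65 on the knockout arrays of week 20, and on the control arrays it was 10.58 and 10.59 on the first 2 and 12.68 and 12.56 on the others. Chemokines fell in 11 of 21 cases and rose in 3, against 22.2% and 20.8% of all genes. Still higher than control liver were 5 chemokines (4 without those arrays), against 3.44% of all genes. Ccl5, which attracts T cells, stayed 1.45 ± 0.22 higher. Ccl4, which attracts macrophages, stayed 1.46 ± 0.34 higher on the probe used and gave -0.07 (adjusted p = 0.919) on another. Of 8 MHC class II genes 3 fell, against 22.2% of all genes. Higher than control liver were 2 of the 8, against 3.44% of all genes, and none without those control arrays.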

How the data were processed

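Total liver RNA of 24 arrays was analysed. The deposited values are background-subtracted intensity values made with GenomeStudio 2011, per the submitters' processing notes; no other step is stated, and equal medians of 13.3 to 13.6 across arrays show that the authors had normalized them. Another table holds 48 columns whose names match no label, and they were not used here. Of the values 27.8% were below 0. These were set to 0, 16 was added and log2 taken. Background was the upper 0.01 tail of the noise below 0, and probes above it on at least 4 arrays were kept. Between 12182 and 12268 probes per array were above background; the number of arrays limits the precision, and no read depth applies. The kept probe of highest mean stood for a gene. All 24 arrays were fitted with limma 3.58.1 in R 4.3.3 as 6 group means with a variance trend, with Benjamini-Hochberg adjustment over 10733 genes. Every adjusted p in the text comes from this fit unless an alternative is named. On simulated data for week 20 against week 8, the fit recovered 21.3%, 77.3%, 99.3% and 98.7% of genes changed by 0.5, 1, 2 and 3 log2 units, and called 0.0791% of unchanged ones. The simulated noise was normal and independent between genes, and only a small part of the genes was changed. In the data 43% of genes were called, so these rates need not hold there.

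Genes to name were taken by rule: the 15 largest rises and falls whose arrays did not overlap, the largest of each class against control liver, and the 4 members of lowest p in each of 46 gene lists, besides Dnmt1, fetal and sex chromosome genes. Members and lists were chosen with earlier results of these data known. Gene symbols were updated through a RefSeq gene table, and 31 damaged by a spreadsheet stayed unnamed. Replicate numbers were not taken as pairs: deviations of same-numbered knockout arrays of weeks 20 and 8 correlated at 0.00753, 0.0229, -0.146 and -0.123. Alternatives changed the offset, floor, filter, normalization, arrays fitted, weights, block, probe rule, variance prior and arrays left out.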

Additional observations from a re-analysis of the deposited data

Results flagged for a closer look

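In groups of 4 arrays, 24 of the 346 groups looked at had 1 array apart from the other 3, by Dixon's criterion; chance gives about 1 in 20. In knockout liver at week 20, array 1 was apart for Sult2a8 (10.7), Ces3b (12.2), Nr1i3 (8.727), Ly6k (4.813) and Col4a1 (9.217). Array 2 was apart for Cela1 (8.347), Asic5 (5.685) and Nrg4 (8.122). Array 3 was apart for Afp (4.203), Tef (10.8) and Cyp2b13 (6.035). Array 4 was apart for Slc7a11 (4.465), Atf3 (4) and Plvap (9.492). In knockout liver at week 8, array 1 was apart for Akr1c6 (5.266), Igf2bp3 (9.077) and Ccl4 (10.89), array 2 for Spink1 (12.08) and Nrg4 (8.115), and array 3 for H2-DMa (8.969). Array 4 of week 8 was apart for Fkbp5 (7.728), Xist (7.198), Ddx3y (7.415) and Eif2s3y (4).

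The change from week 8 to week 20 differed between knockout and control liver in 1525 genes, where it was more positive in knockout liver, and in 1817, where it was more negative. The difference itself was tested, as an interaction term in limma.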

How the results depend on the processing

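The counts of genes that rose or fell from week 8 to 20 in knockout liver, and of genes whose change differed from control liver, stayed within 1.5 times under all 19 and 28 settings tried for each. The distance from adult control liver kept its direction under all 13, between -0.534 and -0.366. The comparison with control liver at week 20 moved. Its 369 higher and 239 lower genes became 240 and 150 with no filter on dim probes, 87 and 44 with only the 8 arrays compared, and 194 and 112 without control arrays 3 and 4. Against the mean of both adult control groups, an alternative chosen after seeing the data, they became 697 and 545. Leaving out 1 array gave between 181 and 416 higher and between 100 and 302 lower genes; without control array 3 they were 181 and 103, without control array 4 206 and 100, without knockout array 2 220 and 111, and without knockout array 3 236 and 134, while 151 were lower without knockout array 1. The cause was not tested. The difference of Dnmt1 missed the threshold with an offset of 50 (-0.33), no filter (-0.48), array weights (-0.50) and only the arrays compared (-0.48), and it ran between -0.60 and -0.38 with 1 array left out; its adjusted p over all settings was 0.0215 to 0.154. Of 148 named genes called between the weeks 7 lost the call under some setting, and of 62 called against control liver 33 did; none changed sign. Of 79 other probes of named genes 11 differed in their call between the weeks and 16 in their call against control liver. The replicate number as a block, which pairs nothing here, gave 2167 higher and 2330 lower genes between the weeks, 316 and 200 against control liver, and -0.48 for Dnmt1 (adjusted p = 0.0637). With 4 arrays a group and values near background, small changes and dim genes are the least certain.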
